A study of Rattus norvegicus with 3 samples.

Results

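The genes described here encode the proteins of the cytosolic ribosome, the particle that translates nuclear-encoded mRNA. Members were all genes on the array's table whose platform symbol begins with Rpl or Rps and a number, or with Rplp0, Rplp1, Rplp2 or Rpsa, with the S6 kinases left out. This gave 48 genes measured by 54 probes, out of 4379 named genes and 6653 probes in all. Of the members, 19 belong to the small subunit (21 probes) and 29 to the large subunit (33 probes). The symbol rule also took in Rps27l, a paralog of Rps27, and Rpl38-ps1, which RefSeq annotates as a pseudogene, besides Rpl36al1 and Rpl37l1, for which RefSeq lists the synonyms Rpl36al and Rpl37. The other 44 are core ribosomal proteins.

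The samples came from the jejunum of Sprague-Dawley rats, male and 6 weeks of age, with no treatment or genetic change named in the labels. Flattened frozen tissue had been sectioned across the villi on a cryostat, and 10 sections of 10 µm made up each fraction of 100 µm, numbered from the villus top. Fraction 1 was the top villus sample (0 to 100 µm), fraction 4 the middle villus sample (300 to 400 µm) and fraction 6 the crypt sample (500 to 600 µm). Each part had 1 sample, the number of animals behind it is not given, and so the differences below have no replicate check and no p-value.

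Each ribosome is built from a small subunit, which holds the mRNA and reads its codons, and a large subunit, which joins amino acids and lets the growing chain leave through a tunnel. Ribosomal proteins are made in matched amounts, and cells that grow and divide make many ribosomes. In the intestine, division takes place in the crypt, and the daughter cells stop dividing, differentiate and move up the villus until they are shed at its top. In mammals, most mRNAs of ribosomal proteins begin with a C followed by an unbroken run of C and T (U in the mRNA), the 5′ terminal oligopyrimidine tract, through which mTOR signalling and the binding protein Larp1 adjust their translation.

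That start was looked up for the members, because it is a feature they are known to share and the symbol rule did not use it. RefSeq promoter sequences of the GRCr8 assembly were matched to 40 of the 48 members, 39 by gene identifier and 1 by symbol. A C followed by at least 4 C or T, on the gene's strand and beginning within 5 bases of the annotated start, was found in 22 of the 40 (55%), against 17% of all 33469 promoters in the RefSeq table and 16.6% of those of protein-coding genes. The shares were 10 of 17 in the small subunit and 12 of 23 in the large subunit. The windows below run from 10 bases before the annotated start to 20 bases after it, with the tract in capitals, and are shown for members on which the results turn. Those with the tract were these.
Rpl10a (chr20:6390523-6390552, plus strand): cttctgccttCTTTTCCggttcccgcagcc
Rpl31 (chr9:49143101-49143130, plus strand): atccctcgcgCCTTTCCTTTCCaacttggg
Rpl39 (chrX:121195877-121195906, minus strand): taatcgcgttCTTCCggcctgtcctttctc
Rpl10 (chrX:157205840-157205869, plus strand): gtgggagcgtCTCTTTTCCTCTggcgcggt
Rps3a (chr2:173827023-173827052, minus strand): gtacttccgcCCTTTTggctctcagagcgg
Rps24 (chr16:96507-96536, plus strand): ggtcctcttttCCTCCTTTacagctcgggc
Rps10 (chr20:5700725-5700754, minus strand): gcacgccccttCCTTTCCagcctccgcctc

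For 3 members that stand at the ends of the comparisons below, these letters were not found within reach of the annotated start, which says nothing about starts used in this tissue.
Rps19 (chr1:89608678-89608707, plus strand): cttgtgcgcccgggaaaccccgtcgttccc
Rps12 (chr1:23500065-23500094, plus strand): gaagcccagcagagcgcttaaataccgtca
Rps27l (chr8:76443648-76443677, plus strand): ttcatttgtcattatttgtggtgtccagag

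Values are the deposited log2 signals, averaged over a gene's probes, and a difference of 1 on this scale is 2-fold. A probe in the lowest 25% of its column (under 5.15 in top villus, 4.15 in middle villus and 6.05 in crypt) was counted as dim, and a difference that rests on a dim value is a bound. The only error that could be estimated is the spread between probes of 1 gene. It was pooled over the named genes with more than 1 probe measured in both parts, a small share of those compared. The pooled SD was 0.91 for top villus minus crypt (206 genes), 0.90 for middle villus minus crypt (222 genes) and 1.05 for top minus middle villus (247 genes). Column medians were close, at 7.57 in top villus, 7.83 in middle villus and 7.81 in crypt. Marker genes went with the part labels, but their lists were chosen with earlier results of these data known, so this is no independent check. All 9 crypt division markers compared were at least 2-fold lower in top villus and in middle villus than in crypt. Bounds made up 5 and 7 of these differences. Of 10 enterocyte markers 9 were higher in top villus and 10 in middle villus. Over all named genes, 39.5% were lower and 23.9% higher in top villus, and 29.5% and 19.1% in middle villus.

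The crypt had the highest value for every one of the 48 members. The large subunit genes had a median level of 10.47 in top villus, 11.29 in middle villus and 13.03 in crypt, and the small subunit genes 10.08 in top villus, 11.23 in middle villus and 13.36 in crypt. Both subunits were therefore lowest in top villus by their medians, with the wider gap between middle villus and crypt. Of the 47 members with a probe measured in all 3 parts, 37 ran in the order crypt, middle villus, top villus, an order held by 27.4% of the 2696 named genes measured in all 3 parts. The other 10 were highest in crypt and lowest in middle villus, an order held by 13.2% of those named genes. Crypt was highest in all 47 members and in 40.6% of the named genes.

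**Figure D1:**
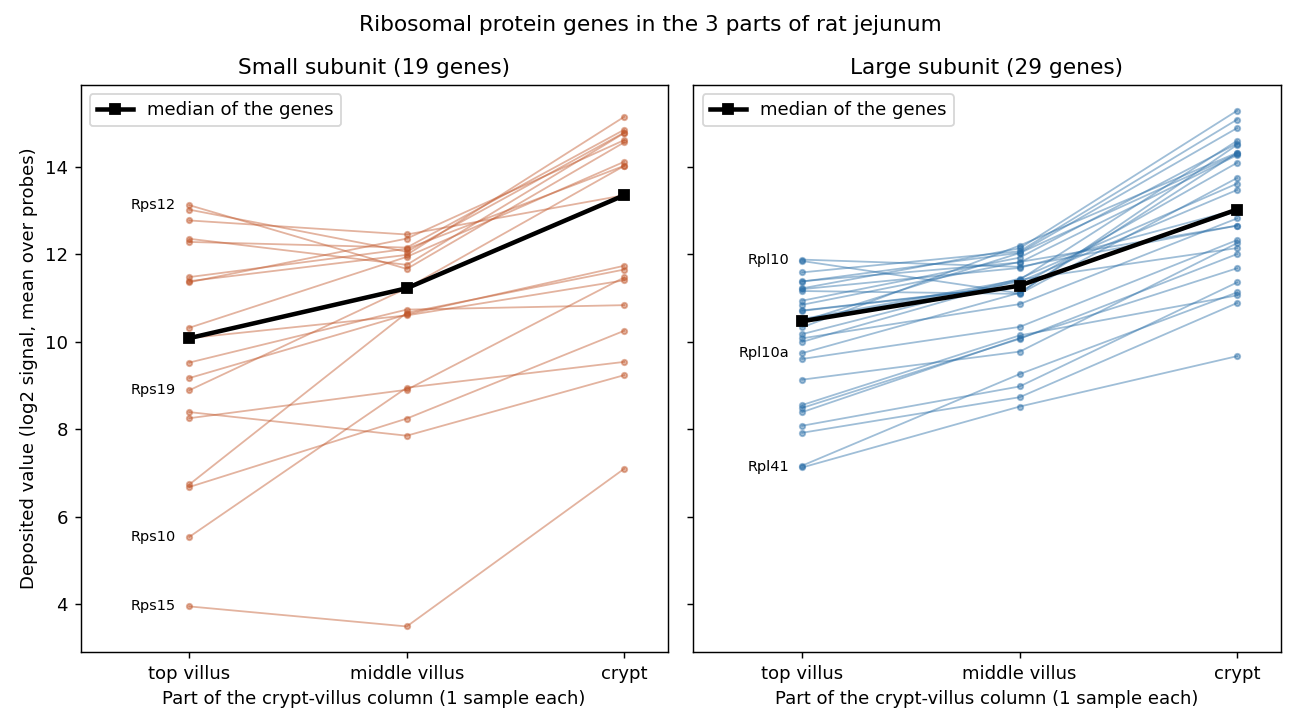
Deposited log2 signal (mean over a gene's probes) of each member in top villus, middle villus and crypt, 1 sample each, for 19 small subunit genes and 29 large subunit genes. Each thin line is a gene and the black line is the median of the subunit. Every line is highest in crypt, and the large subunit median is 10.47 in top villus, 11.29 in middle villus and 13.03 in crypt.

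Top villus was set against crypt first. All 29 large subunit genes and all 19 small subunit genes had a lower value in top villus. Of these, 28 large and 17 small subunit genes were at least 2-fold lower and none was higher, where 39.5% of the 3932 named genes compared were lower and 23.9% higher. The median log2 difference was -2.99 for the large subunit, which is 7.94-fold lower, and -2.57 for the small subunit, against -0.39 over all named genes. A difference of 2 pooled probe SDs in the lower direction was reached by 26 large and 13 small subunit genes, and by 24.5% of all named genes.

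In the small subunit, the widest difference measured in both parts was that of Rps19, which is needed to mature the RNA of this subunit and is mutated in human Diamond-Blackfan anaemia. Its level was 8.89 in top villus, 11.23 in middle villus and 14.03 in crypt, and top villus was 35.2-fold below crypt (log2 difference -5.14). Next came Rps27l, whose human counterpart is induced by p53, with 6.73 in top villus, 10.67 in middle villus and 11.66 in crypt, a log2 difference of -4.92. The third was Rps10, a protein of the subunit's head near the mRNA entry, at 5.53 in top villus, 8.95 in middle villus and 9.54 in crypt and a difference of -4.01. Both Rps27l and Rps10 had middle villus values within 2-fold of crypt, and 20.1% of the Rps27l difference and 14.7% of the Rps10 difference were present in middle villus. The Rps10 value in top villus lay just above the level for dim probes.

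Rps3a, a platform protein near the mRNA exit, was measured by 2 probes that differed little, with 11.39 in top villus, 11.99 in middle villus and 15.15 in crypt on average and a top minus crypt difference of -3.76. Rps15a (-3.80), Rps26 (-3.58), which also lies near the mRNA exit, Rps29 (-3.25), which binds zinc, and Rps7 (-3.22) were at similar distances below crypt. Rps6, the main substrate of the S6 kinases, had 12.36 in top villus, 11.76 in middle villus and 14.78 in crypt, a difference of -2.42. Rps23, which borders the decoding centre, differed by -2.57, and so did Rps25, which several viral mRNAs need for internal entry. Rps15, whose tail reaches the decoding site, was dim in both villus parts, at 3.94 in top villus and 3.48 in middle villus, and measured at 7.09 in crypt. It was at least 3.86-fold lower in top villus than in crypt.

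Small subunit genes closest to their crypt level in top villus were Rps16, whose tail reaches the site that holds the peptidyl-tRNA, and Rpsa, also known as the laminin receptor precursor. Rps16 had 12.78 in top villus, 12.46 in middle villus and 13.36 in crypt, a top minus crypt difference of -0.58. Rpsa had 8.39 in top villus, 7.85 in middle villus and 9.24 in crypt, a difference of -0.85. These 2 were the only small subunit genes inside the 2-fold limit, followed just beyond it by Rps13 (-1.31), Rps9 (-1.32) and Rps12 (-1.44). In Rps16 the value rests on 1 of 2 probes, since the other was dim in all 3 parts.

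Among large subunit genes, Rpl10a, which forms the movable L1 stalk where spent tRNA leaves, had the widest difference. Its level was 9.74 in top villus, 11.12 in middle villus and 14.33 in crypt, and top villus was 24.0-fold below crypt (log2 difference -4.58). Rpl31, at the mouth of the peptide tunnel, followed with 10.52 in top villus, 11.42 in middle villus and 14.60 in crypt (-4.08), and Rpl32 with 11.23 in top villus, 12.14 in middle villus and 15.29 in crypt (-4.07). The 3 share the order crypt, middle villus, top villus, with the wider step between middle villus and crypt.

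Other proteins of the peptide tunnel and its exit were also lower in top villus than in crypt. Rpl26 differed by -4.00 and Rpl39, a small protein inside the tunnel, by -3.97, with 7.17 in top villus, 9.26 in middle villus and 11.13 in crypt. Rpl4, which narrows the tunnel, differed by -3.28 and Rpl19 by -2.15. In the large subunit as a whole, 28 of 29 genes were past 2-fold, so these genes do not stand apart by their calls. Rpl8, close to the site where peptide bonds form, differed by -3.51, with 11.38 in top villus, 12.04 in middle villus and 14.89 in crypt.

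The pair that binds 5S RNA, and that in free form can inhibit the p53 regulator Mdm2, did not lie together. Rpl5 had 10.71 in top villus, 11.28 in middle villus and 14.10 in crypt (-3.39), and Rpl11 had 11.21 in top villus, 11.69 in middle villus and 13.03 in crypt (-1.82). The gap between the genes is within 2 pooled probe SDs. Rpl10, which joins the large subunit late in its assembly and lies near the bound tRNA, was the 1 large subunit gene inside the 2-fold limit. It had 11.88 in top villus, 11.72 in middle villus and 12.66 in crypt, a top minus crypt difference of -0.78. Next nearest to crypt were Rpl36al1 (-1.81) and Rpl11. By its brighter probe Rpl36al1 differed by -0.80, inside the limit, which leaves 27 of 29 large subunit genes lower, and under quantile normalization all 29 were lower, Rpl10 included.

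Several members are in common use as reference genes for relative quantification, and these were not level along the column. Rpl32 is given above. Rpl13a had 11.39 in top villus, 11.82 in middle villus and 14.27 in crypt, so top villus was 7.40-fold below crypt. Rplp0, the base of the stalk that recruits translation factors, had 2 probes with unlike values. Its brighter probe read 13.06 in top villus, 11.96 in middle villus and 14.83 in crypt, and its other probe 3.91 in top villus, 8.18 in middle villus and 9.19 in crypt. Both were lower in top villus than in crypt, by a log2 difference of -1.76 for the brighter probe and a bound of -4.05 for the other.

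**Figure D2:**
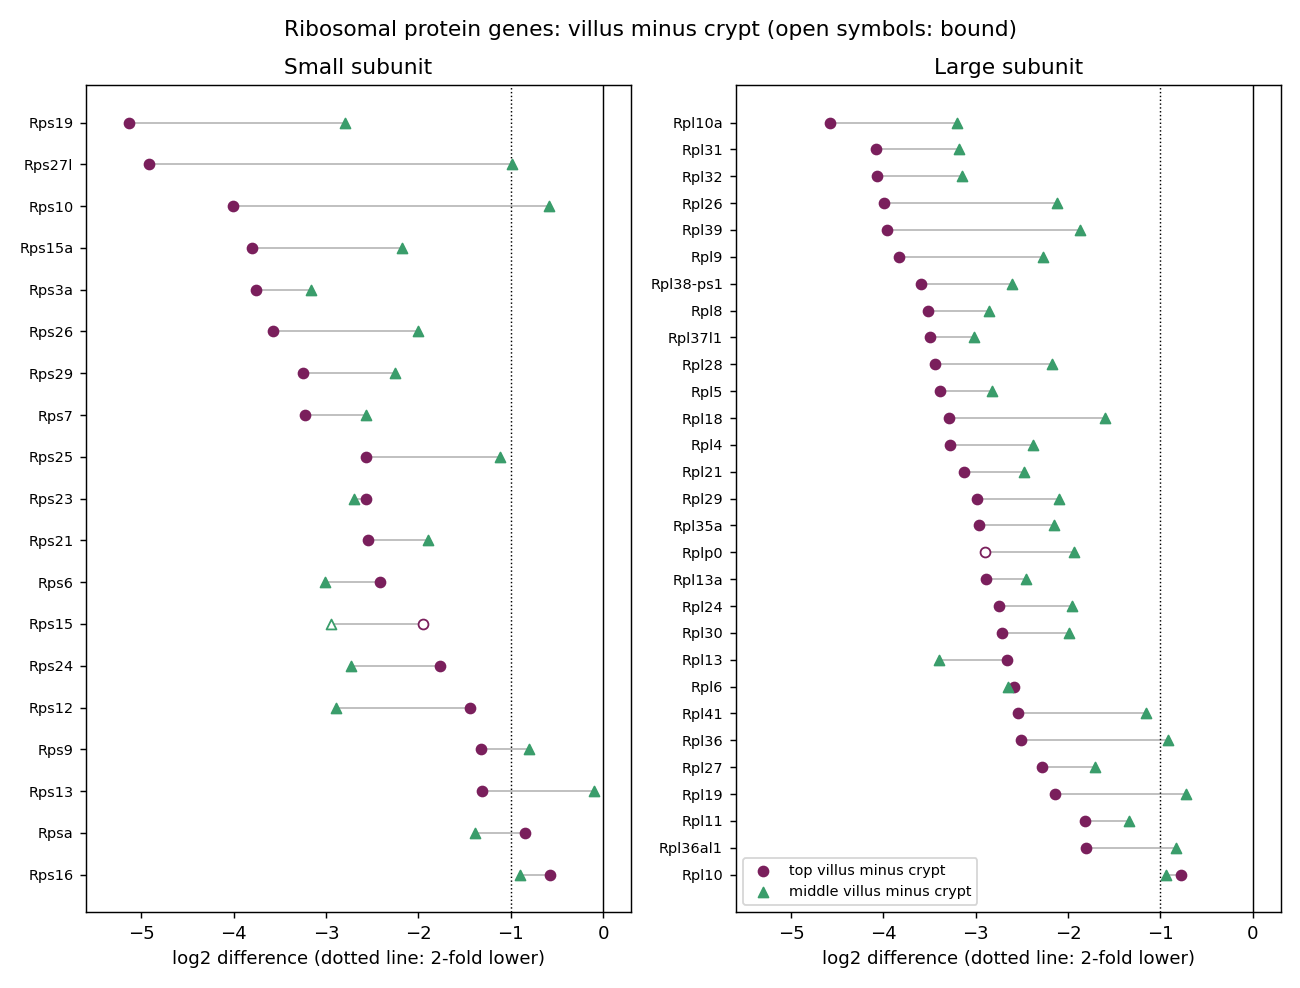
The log2 difference from crypt of each member, for top villus (circles) and middle villus (triangles), with small subunit genes at left and large subunit genes at right, ordered by the top villus difference. Open symbols are bounds, the dotted line marks 2-fold lower, and all symbols lie left of 0, between -5.14 for Rps19 in top villus and -0.10 for Rps13 in middle villus.

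Middle villus was then set against crypt. Again all 48 members were lower in middle villus, 25 of 29 large and 14 of 19 small subunit genes by at least 2-fold and none higher, where 29.5% of the 3825 named genes compared were lower and 19.1% higher. Under quantile normalization the calls over all named genes were 940 lower and 935 higher, against 1127 and 730 as deposited. The median log2 difference was -2.16 for the large subunit (4.46-fold lower) and -2.18 for the small subunit, against -0.08 over all named genes. Differences of 2 pooled probe SDs were reached by 21 large and 12 small subunit genes, and by 20.8% of all named genes.

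Rpl13 stood furthest below crypt, with 11.11 in middle villus and 14.51 in crypt (-3.40), followed in the large subunit by Rpl10a (-3.20) and Rpl31 (-3.18). In the small subunit the most negative were Rps3a (-3.16), Rps6 (-3.02) and Rps12 (-2.90). The members inside 2-fold were Rpl19 (-0.73), Rpl36al1 (-0.83), Rpl36 (-0.92) and Rpl10 (-0.94) in the large subunit. In the small subunit they were Rps13 (-0.10), Rps10 (-0.59), Rps9 (-0.80), Rps16 (-0.90) and Rps27l (-0.99). Rps13 had 10.74 in middle villus and 10.84 in crypt, a 1.07-fold difference.

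The members differed less among themselves than named genes did. The SD of the middle minus crypt difference was 0.84 over the 48 members and 1.75 over all named genes, and for top villus minus crypt 1.04 and 2.05. The members' spread was thus close to the pooled SD between probes of 1 gene. It was not particular to them. For top villus minus crypt the SD was 1.06 in mitochondrial ribosome genes, 0.92 in ribosome assembly factors and 1.17 in elongation and initiation factors. For middle villus minus crypt these were 1.00, 1.82 and 0.99. The SDs over all named genes include bounds, 926 for middle villus minus crypt and 1197 for top villus minus crypt. Within the members, the SD of the top minus crypt difference was 1.32 in the small subunit and 0.82 in the large subunit.

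The third comparison set the top of the villus against its middle, and here the differences had both signs, 38 below 0 and 9 above it. Their SD was 1.44 in the small subunit and 0.61 in the large subunit. Of 29 large subunit genes 9 were at least 2-fold lower in top villus and none was higher. Of 18 small subunit genes 7 were lower and 1 was higher. Over the 3768 named genes compared, 27.4% were lower and 29.5% higher, so the share of lower members was 34.0% against that 27.4%. Medians were -0.90 in the large and -0.65 in the small subunit, against 0.00 over all named genes. Of 47 members, 4 were lower by 2 pooled probe SDs or more, against 12.7% of named genes. They were Rps27l (-3.93), Rps10 (-3.42), Rps19 (-2.34) and Rpl39 (-2.10). After Rpl39, the most negative large subunit genes were Rpl26 (-1.87) and Rpl18 (-1.69).

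Rps12, a protein of the beak of the small subunit, was the exception in the other direction. It had 13.13 in top villus, 11.67 in middle villus and 14.57 in crypt, so that top villus was 2.75-fold above middle villus and still below crypt. Rps24, with 13.03 in top villus, 12.06 in middle villus and 14.79 in crypt, was 1.95-fold above middle villus. The remaining members with a top minus middle difference above 0 were Rpl13 (0.74), Rps6 (0.60), Rpsa (0.54), Rps16 (0.32), Rpl10 (0.17), Rps23 (0.13) and Rpl6 (0.06). All 9 are within 2 pooled probe SDs of 0, and the signs of Rps16, Rpl10, Rps23 and Rpl6 turned under quantile normalization. Rplp0 belongs to neither side, since its brighter probe differed by 1.10 and its other probe was lower, with a bound of -3.03.

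**Figure D3:**
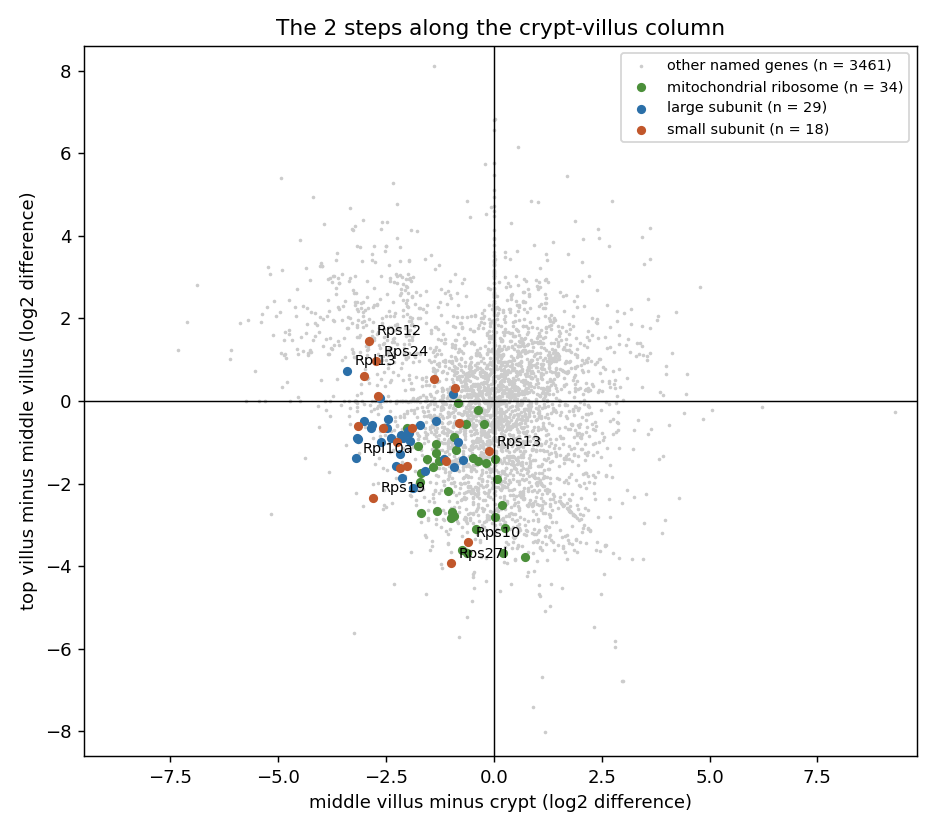
Middle villus minus crypt (horizontal axis) against top villus minus middle villus (vertical axis), both log2 differences, for 18 small subunit, 29 large subunit and 34 mitochondrial ribosome genes and for other named genes in grey. Both axes contain the middle villus value. Members lie left of 0, most of them with a wider horizontal than vertical difference, while Rps10 (-0.59 and -3.42) and Rps27l (-0.99 and -3.93) lie low and near the middle.

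Split along the column, most members had the wider step between middle villus and crypt. Over the 47 members measured in all 3 parts, the median share of the top minus crypt difference that was already present in middle villus was 72.6%, with quartiles of 55.4% and 84.6%. In 37 of the 47 the step between middle villus and crypt was the more negative one. Neither figure was computed over all named genes. By calls, 27 of 48 members were lower in middle villus than in crypt and then inside 2-fold in top against middle villus. Of 3825 named genes 16.2% had that pattern. The pattern of inside and then lower was held by 5 of 48 members and 15.7% of named genes. Genes dim in both villus parts counted as inside. The proteins of the mitochondrial ribosome, which translates the genes of mitochondrial DNA, divided the other way. For 31 of them measured in all 3 parts the median share was 33.3%, and 9 had the more negative step between middle villus and crypt. Their median steps were -0.92 for middle villus minus crypt and -1.49 for top minus middle villus, against -2.17 and -0.81 for the cytosolic members. Under quantile normalization 40 of 47 cytosolic and 14 of 31 mitochondrial genes had the more negative step between middle villus and crypt, and under median scaling 41 and 13. With 1 sample per part this contrast has no test.

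At the level of calls, 33 of 36 mitochondrial ribosome genes were at least 2-fold lower in top villus than in crypt, 14 of 36 were lower in middle villus than in crypt and 28 of 34 were lower in top than in middle villus. Over all named genes these shares were 39.5%, 29.5% and 27.4%. None was higher in any of the 3 comparisons, in which 5, 2 and 3 of the differences were bounds. Mrpl12 had 8.89 in top villus, 11.40 in middle villus and 11.21 in crypt, and Mrpl15 had 8.28 in top villus, 11.89 in middle villus and 12.63 in crypt. In middle villus 22 of 36 mitochondrial ribosome genes were within 2-fold of crypt, as were 9 of 48 cytosolic members. Over all named genes 1968 of 3825 were within 2-fold, so the mitochondrial share was near that of all named genes.

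**Figure D4:**
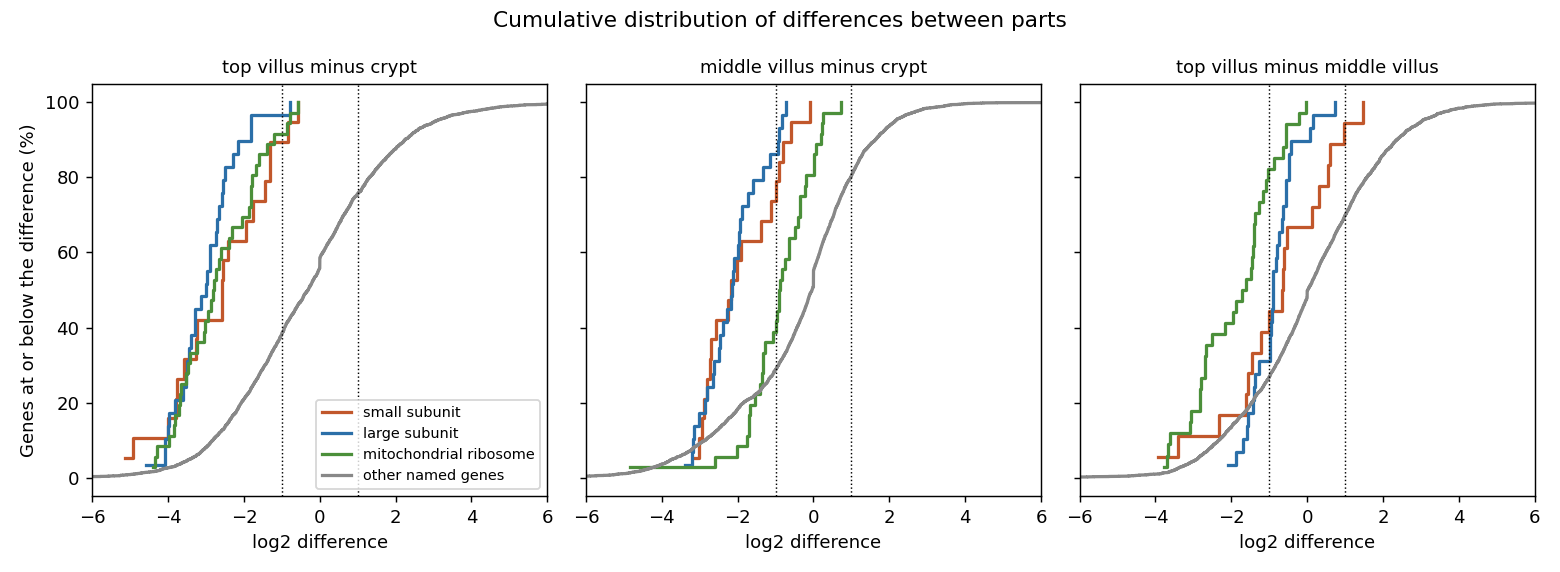
Cumulative share of genes (vertical axis, percent) at or below a given log2 difference (horizontal axis), for small subunit, large subunit, mitochondrial ribosome and other named genes in each of the 3 comparisons. Dotted lines mark 2-fold. In middle villus minus crypt the cytosolic medians, -2.18 and -2.16, lie left of the mitochondrial median of -0.89, and in top minus middle villus they lie right of it.

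Genes that make ribosomes or work with them were mostly lower than in crypt as well, where 39.5% of all named genes were lower in top villus and 29.5% in middle villus. On a list of ribosome assembly factors, all 13 were at least 2-fold lower in top villus than in crypt (median -2.65) and 10 of 13 in middle villus (median -2.64). Bounds made up 3 of these differences in top villus and 4 in middle villus, and the top villus median is itself the bound of Bysl. In top against middle villus, 5 of 11 assembly factors were higher and 4 lower, with 3 bounds among the 11. In that comparison 29.5% of all named genes were higher and 27.4% lower. Npm1, a nucleolar chaperone, differed by -4.34 in top villus and -1.82 in middle villus, while Nolc1, a nucleolar scaffold, differed by -2.68 and -5.10. On a list of elongation and initiation factors 17 of 21 were lower in top villus than in crypt (median -2.23) and 14 of 21 in middle villus (median -1.43). None was higher, and each of these comparisons held 2 bounds. In top against middle villus, 2 of 20 were higher and 8 lower. Eef1a1, which brings aminoacyl-tRNA to the ribosome, differed by -3.15 and -1.99. Eif5, which acts in start codon selection, was near its crypt level in both, at -0.21 and -0.20.

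Of 8 genes known to control the production of ribosomal proteins, 5 were dim in top villus, 3 in middle villus and 1 in crypt. At least 2-fold lower than in crypt were 5 of 7 in top villus (39.5% of all named genes) and 6 of 8 in middle villus (29.5%), with 4 bounds among the genes compared in each. Eif4ebp2, a repressor of initiation, was the 1 higher gene, in middle villus, with a bound of 1.12 against a dim crypt value. Myc, a transcription factor that drives ribosome production, had 8.21 in crypt and was dim in both villus parts, with bounds of -3.06 in top villus and -4.06 in middle villus. The gap between these bounds comes from the dim levels of the 2 columns and gives no order of the villus parts. The kinase Mtor was measured in all parts, at 7.17 in top villus, 8.53 in middle villus and 9.84 in crypt. Larp1 lay just above the dim level in crypt, at 6.13, and was dim in both villus parts. Rps6kb1, an S6 kinase, was dim in top villus, and read 4.87 in middle villus and 7.05 in crypt. Rheb, which activates mTOR, differed by 0.49 in top villus and 0.35 in middle villus and so was inside the limit.

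Top minus crypt differences lay between -4.58 and -0.78 in members with the pyrimidine start and between -5.14 and -0.58 in those without it. The median top minus crypt difference was -2.98 in the 22 members with it and -2.67 in the 18 without, and for middle villus minus crypt it was -2.17 and -2.04. The difference between these groups has no test. Membership of the group without it rests on the annotated start and the 5-base reach. In Rps15a and Rpl36al1, for example, such a run begins just outside that reach. The split is thus not one of members with and without the tract in this tissue. Of other short motifs, searched on both strands over the 300 bases around the start, CCGGAAG, which ETS factors bind, was in 10 of 40 members (25%), 8.75% of all promoters and 10.7% of those of protein-coding genes. GGGCGG, a binding sequence of Sp1, was in 20 of 40 members (50%), 33.1% of all promoters and 41.8% of those of protein-coding genes. AAGATGGC, bound by YY1, was in 3 members (7.5%), 3.17% of all promoters and 3.68% of the protein-coding ones. TATAAA, the core of the TATA box, was in 3 members (7.5%), 14.2% of all promoters and 13% of the protein-coding ones. The end of CCGGAAG and the start of AAGATGGC share letters, so these motifs can overlap. The 47 members that RefSeq places lie on 17 chromosomes, with 8 of them on chromosome 1.

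Of the 6 members with 2 probes, Rps3a had probes that differed by 0.14 in top villus minus crypt, Rpl24 by 1.01, Rpl27 by 1.21, Rpl36al1 by 2.03 and Rplp0 by at least 2.28. In middle villus minus crypt the gaps were 0.08, 0.24, 0.28, 0.26 and 1.85 in the same genes. All of these probes were lower in both villus parts than in crypt. In top minus middle villus the probes of Rpl27 and Rplp0 had opposite signs. RefSeq lists 536 pseudogene entries named after 44 of the members, so a probe may also bind their transcripts, and that part in the values was not tested.

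**Figure D5:**
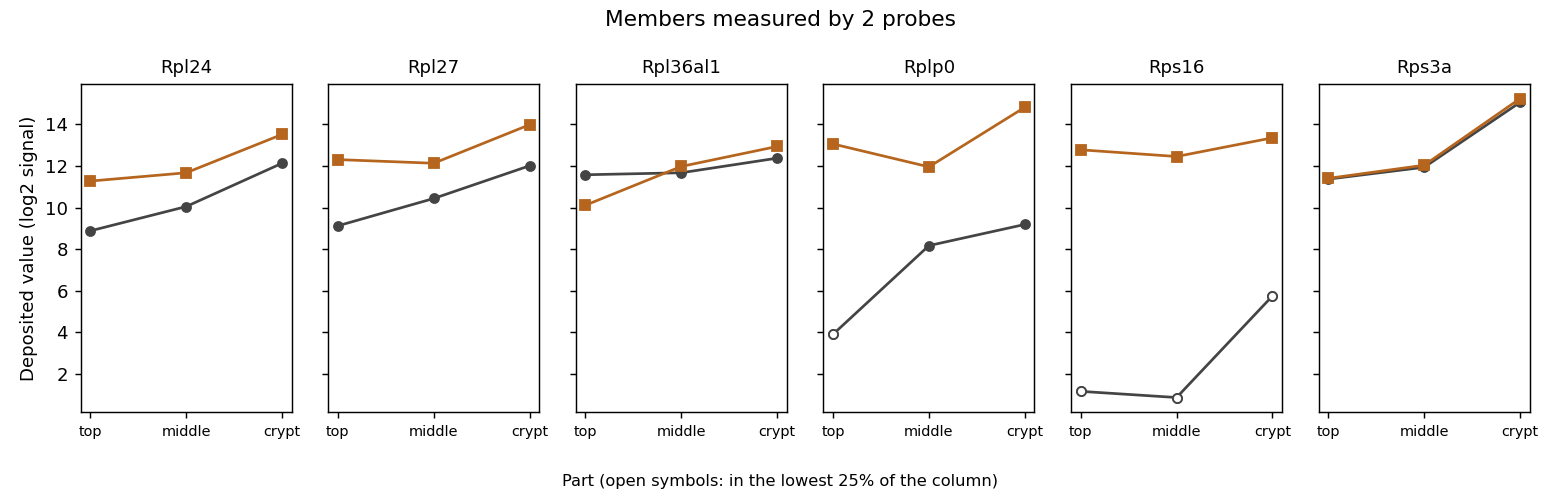
Deposited log2 signal of each probe in top villus, middle villus and crypt for the 6 members measured by 2 probes, 1 colour and marker per probe. Open symbols are values in the lowest 25% of their column. Crypt is highest for all 12 probes, and the probes of Rplp0 part in top villus, at 13.06 and 3.91.

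The fractions are bulk tissue, so fewer cells with many ribosomes and less ribosomal protein mRNA per cell cannot be told apart. Markers of several cell types moved between the same parts. The 9 crypt division markers had a mean level of 4.31 in top villus, 2.52 in middle villus and 9.49 in crypt, with 5, 7 and 0 of them dim. The 3 plasma and B cell markers were all lower in top villus than in crypt, with 2 dim in top villus, 1 in middle villus and 0 in crypt. Jchain, the joining chain of secreted antibodies, had 5.62 in top villus, 13.64 in middle villus and 12.46 in crypt. Of the same markers, Tnfrsf17 was lower in middle villus than in crypt (a bound of -3.21) and Derl3 was inside the limit (0.43). Of 4 T and NK cell markers 3 were higher and 1 lower in top villus, and all 3 macrophage and MHC class II genes were higher. Of 4 smooth muscle markers, Actg2 (0.47), Myh11 (0.35) and Tagln (0.23) were inside the limit in top villus. Des was measured in top villus, at 5.94, and dim in crypt, at 3.99. Its difference is a bound of 0, which does not place it inside the limit. Both Paneth cell markers were lower in middle villus than in crypt, Lyz2 by -1.21 and Pla2g2a by a bound of -3.81, and Pla2g2a was lower in top villus too (a bound of -2.81). Pla2g2a was dim in both villus parts, so its bounds give no order between them. Both mast cell markers were lower in top villus than in crypt, Mcpt1 by -2.49 and Cpa3 by a bound of -2.69, and inside the limit in middle villus. Of 3 goblet cell markers, Clca1 was lower in top villus (a bound of -5.84) and the others were inside the limit. Of 4 enteroendocrine markers, 2 were higher in top villus. The part of these cells in the ribosomal protein values was not tested.

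Ribosomal protein probes are bright, and 45 of 54 were in the top 10% of the crypt column, 33 in middle villus and 22 in top villus. As a check chosen after the values had been seen, they were set beside other bright genes. Of 718 other named genes with a mean level of 10 or more, 29% were lower and 34.7% higher in top villus than in crypt, and 11.8% lower and 25.9% higher in middle villus. Of 37 members at that level, 35 were lower in top villus than in crypt and 31 in middle villus.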

How the data were processed

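Per the labels' protocols, RNA of the cryostat fractions was purified with RNeasy and labelled with an Agilent linear amplification kit, and both Cy3 and Cy5 are named. The authors deposited a table of 6653 probes with 1 column per part, read here as log2 values because the highest, 15.997, lies just under 16, the ceiling of a 16-bit scanner. For channel and normalization, the sources used here give nothing. Neither probes nor parts are named in the 3 scanner files, which were left out. Precision is limited by having only 3 arrays.

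Of the probes, 4820 have 1 symbol in the platform annotation, 0 several and 1833 none. Symbols were updated by Entrez identifier through RefSeq (GRCr8), which held 4806 and changed 0. Values were compared as deposited. Probes entered a comparison when outside the lowest 25% of the column in at least 1 of the 2 parts, dim values were set to that level, bounds were not allowed to pass 0, and probes of a gene were averaged. Calls were made at 2-fold. With 1 sample per part there was no test. The members, lists and limits were chosen with earlier results of these data known. Genes named with values are the 3 most negative and 3 most positive per subunit and comparison, members with listed roles, members with several probes and genes of the fixed lists. The list genes named, and members named beyond this, were picked after their values were seen. Steps were tested on simulated data (Python 3.11.15, numpy 2.4.6, pandas 2.3.3).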

Additional observations from a re-analysis of the deposited data

How the results depend on the processing

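No paired analysis was possible because each part has 1 sample. Every member stayed below crypt in both villus parts under quantile normalization, median scaling, 75th percentile scaling, a linear floor of 32, the brightest probe of each gene, no filter on dim probes, and (for 47 members) only probes measured in every part. Subunit medians ranged over -3.12 to -2.74 (large) and -2.62 to -2.32 (small) for top villus minus crypt, over -2.19 to -2.13 and -2.25 to -2.09 for middle villus minus crypt, and over -0.90 to -0.64 and -0.75 to -0.39 for top minus middle villus. A count was scored as moved when it changed by over 1.5-fold or to or from 0. A median was so scored only when it shifted by the pooled probe SD or more, a wide margin. Of 186 recomputed counts and medians, 13 moved, all of them counts in top against middle villus. Large subunit genes lower there, 9 as reported, were 13 of 29 under quantile normalization, which was not scored as moved. A reversal could be called only for medians of 2-fold or more, and none of these changed sign. Counts could not be called reversed, nor could the medians in top against middle villus. Small subunit genes higher there, 1 as reported, were 2 under median scaling and 75th percentile scaling, 3 at 1.5-fold and 0 at 4-fold. Large subunit genes higher, 0 as reported, were 1 under median scaling, with probes measured in all 3 parts, with the brightest probe, with each probe counted on its own and at 1.5-fold. Genes lower were 11 (small) and 21 (large) at 1.5-fold, and 3 and 1 at 4-fold. Median scaling moved the median of all named genes in this comparison to 0.24. For top villus minus crypt that median was -0.39 as deposited and -0.15 under median scaling. The planned protein comparisons were not run. Rplp0 in top minus middle villus was -0.96 on average and 1.10 by its brighter probe. Without a detection filter Rps16 differed by -2.58 in top villus minus crypt, through its dim probe.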

Other observations

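The 26 members with a crypt level of 13 or more ranged over 8.89 to 13.13 in top villus (SD 1.00), 11.10 to 12.46 in middle villus (SD 0.42) and up to 15.29 in crypt (SD 0.62). They were chosen by their crypt level, so their lower villus values and their crypt spread are partly set by that choice, and the spreads are over different probes. Across the 48 members, the middle minus crypt difference had a Pearson r of -0.34 and a Spearman rho of -0.50 with the mean level over the 3 parts, as a description over genes that share 3 arrays. For top villus minus crypt these were -0.01 and 0.03, and for top minus middle villus 0.51 and 0.53 over 47 members. The middle villus value enters both middle minus crypt and top minus middle villus. Each difference also shares its values with the mean level, so these correlations are partly set by that overlap.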
